A study of Mus musculus with 2 samples.

Results

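Genes that were lower in Klf9-OE primordial germ cells (PGCs) by more than the estimation error within each library are described here. The genes were selected on the deposited FPKM values themselves, which Cufflinks estimates per length of transcript and per number of mapped reads, together with their 95% intervals. A gene was taken where its FPKM was at least 1 in the control library and not 0 in the Klf9-OE library, and where the lower bound of its control interval was at least 1.5 times the upper bound of its Klf9-OE interval. It also had to have 1 locus and an estimate marked as good in each file, and genes of small RNAs and of a set of name families (Mir, Snor, Klf, Etv, Spry, Spred, Dusp, Hist, Col, Lam, Itg, Cdh, Adcy, Ifi, Oas and Gbp) were left out. Of 23154 symbols with 1 locus in each file, 11388 met every other condition, and 274 of these, or 2.41%, met the condition on the intervals. The mirrored rule found 226 of 11416 genes, or 1.98%, to be higher in Klf9-OE PGCs. Since the FPKM values chose the genes, their lower level is a description and not a finding, and a gene that passed only because it was high in control PGCs had to be lower in the other library.

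Both libraries came from PGCs of E13.5 mouse embryos that carried the Oct4-deltaPE-GFP transgene, and cells from genital ridges of both sexes had been sorted for strong GFP. The cells were infected at an MOI of 5 with a lentivirus, either a control virus (control) or one carrying the Klf9 coding region in the CSII-EF vector (Klf9-OE), and were cultured for 1 day on gelatin. The labels describe a GS medium that contains bFGF, whereas the study's text describes a culture without it. There was 1 library in each group, so no difference has a replicate check, no test was possible, and the intervals hold estimation error inside each library and nothing else.

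PGCs are the cells from which the germ line of the embryo develops, and cytokines in culture can bring them to grow as pluripotent embryonic germ cell lines. KLF9 is a zinc finger transcription factor of the Krüppel-like family, whose members bind GC boxes and CACCC-like elements in promoters and can act as repressors or activators. It is known as a gene that glucocorticoids and thyroid hormone induce.

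Klf9 had an FPKM of 2.27 (95% interval 1.97 to 2.57) in the control and 80.8 (77.0 to 84.5) in the Klf9-OE library, and reads of the vector and of the endogenous gene are not separated. The labelled cell type was checked against 12 PGC markers, all of which were found. Their summed FPKM was 1597 in control PGCs and 1336 in Klf9-OE PGCs, and 11 of the 12 were lower in Klf9-OE PGCs, with Dazl as the exception. In bulk RNA, fewer cells of a type and less RNA per cell cannot be told apart. The summed FPKM of 12 markers of gonad somatic cells was 31.5 and 41.2. For 9 endothelial markers it was 29.5 and 41.7, most of it Pecam1 (16.8 and 24.2), and 4 of the 9 were lower in Klf9-OE PGCs. For 6 fibroblast markers, almost all of it Vim, it was 111 and 115, and for 15 macrophage markers 9.14 and 7.69. Of the macrophage markers, 11 were under 1 in both libraries. C1qb, C1qc, Cd52 and Lyz2 were at 0 in the Klf9-OE file, and 11 of the 15 were lower there. Higher in Klf9-OE PGCs were Csf1r (0.307 and 1.18), Cd68 (3.69 and 4.11), Mrc1 (0.078 and 0.163) and Aif1 (0.108 and 0.266). The part of other cells in the lower genes was not tested. The Y-linked genes Ddx3y, Uty, Kdm5d and Eif2s3y were present in both libraries, at 3.76, 4.95, 3.72 and 59.0 FPKM in control PGCs and 4.29, 5.50, 3.20 and 49.3 in Klf9-OE PGCs, and Xist was at 0.829 and 2.05.

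The lower genes spanned the range of expression of PGCs. Their control FPKM had a median of 12.2, close to the 12.5 of all eligible genes, and ran from 1.06 for Gpbar1 to 2895 for Rps21. It was from 1 to 5 for 85 genes, from 5 to 50 for 125 and at least 50 for 64. The median log2 ratio, Klf9-OE minus control, was -1.18, a 2.26-fold lower level, with quartiles of -1.61 and -0.96, and it ran from -3.81 for Gpbar1 to -0.71 for Zcchc14. Over all eligible genes the median log2 ratio was -0.036. Of the lower genes, 199 were at least 2-fold lower and 24 at least 4-fold lower, and 45 were under an FPKM of 1 in Klf9-OE PGCs. Among all eligible genes, 333 (2.92%) were at least 2-fold lower. A large fold with a wide interval fails the rule, and 75 of the lower genes were under 2-fold.

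**Figure D1:**
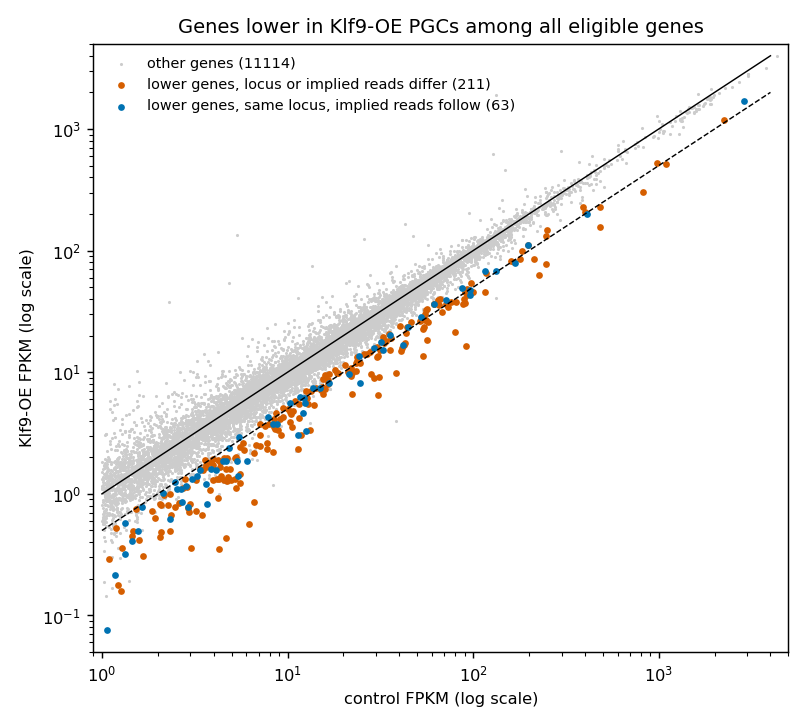
Control FPKM (x axis, log scale) against Klf9-OE FPKM (y axis, log scale) for the 11388 eligible genes, with the 274 lower genes in colour. Blue points are the 63 whose locus is the same in both files and whose interval-implied reads follow the FPKM, orange points are the other 211, the solid line marks equal values and the dashed line a 2-fold lower value.

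At the threshold itself the genes were alike on either side. The 5 genes just inside were Sohlh1 (control lower bound 1.501 times the Klf9-OE upper bound), Hhat (1.502), Eno4 (1.502), Trim50 (1.502) and Cfap57 (1.506). Just outside were Gm20219 (1.499), Rwdd4a (1.499), Mkln1 (1.497) and Adh4 (1.496).

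The rule asks for well-measured genes, and for most of the 274 the interval and the FPKM did not describe the same change. The width of the interval implies a read number for a gene with 1 transcript, namely the square of 2 times the FPKM divided by the distance to the upper bound. The implied depth of the Klf9-OE library was 1.22 times that of the control library (median of 2638 genes, quartiles 1.202 and 1.230). Of genes whose implied reads lay within 0.06 of a whole number from 1 to 9, that number was even for 36.4% of 2042 in the control file and 87.7% of 1700 in the Klf9-OE file. If reads were counted in pairs in the Klf9-OE file, which was not tested, its implied reads and depth would be 0.5 times those printed, and the ratios corrected for depth would stay as they are. The implied reads followed the FPKM, to within 10% after the correction for depth, for 74 of the 274 lower genes, and did not for 200 (73.0%), against 5921 (52.0%) of all eligible genes. They did not follow for 186 (82.3%) of the 226 genes higher by the mirrored rule either. In 186 of the 200 lower genes that did not follow, the implied reads were lowered less than the FPKM or were not lowered at all. Of the 5921 eligible genes that did not follow, 2642 (44.6%) had a ratio of implied reads above that of FPKM. Choosing genes by a low FPKM ratio favours this direction, so the count of 186 is a description. The median log2 ratio of implied reads was -1.13 for the 74 genes and -0.32 for the 200, although the median log2 ratio of FPKM was close, at -1.15 and -1.198. After the correction for depth, 195 of the lower genes had fewer implied reads in Klf9-OE PGCs and 79 did not. Where Cufflinks divides reads among several transcripts the interval also carries the uncertainty of that division, so implied reads are then not a count.

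**Figure D2:**
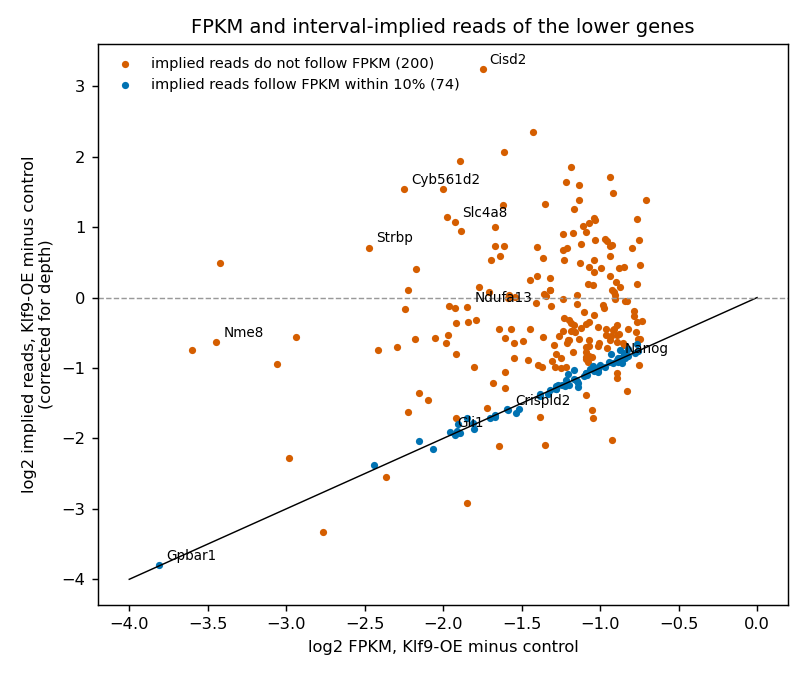
Log2 ratio of FPKM (x axis) against the log2 ratio of interval-implied reads corrected for depth (y axis), both Klf9-OE minus control, for the 274 lower genes. The solid line marks equal ratios, the 74 blue genes lie along it, and most of the 200 orange genes lie above it, 79 of the 274 at or above the dashed line of no change.

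The locus that Cufflinks measured differed between the files more often for both the lower and the higher genes than for all eligible genes. Its start or end differed for 118 of the 274 lower genes (43.1%), 84 of the 226 higher genes (37.2%) and 28.4% of all eligible genes. Among the 118, the locus was shorter in the Klf9-OE file for 100 and longer for 18. Among all eligible genes it was shorter there for 1921 and longer for 1308. Cufflinks assembled transcripts in each library separately, and 95 lower genes (34.7%) stood under an assembled locus in the control file only, against 17.4% of all eligible genes. Only 3 lower genes, Ddit4, Rragd and Sdc3, stood under an assembled locus in the Klf9-OE file alone. By assembly, the genes higher in Klf9-OE PGCs had the opposite make-up: 71 of 226 (31.4%) were assembled in the Klf9-OE file only and 6 (2.65%) in the control file only. In both sets the assembled locus was more often in the library in which the gene was high, and the part of the assembly in the FPKM differences was not tested. With the same locus and implied reads that followed, 63 genes remained of 4389 eligible genes that met the same conditions (1.44%). These 63 are called steady genes below, and the status is given beside each gene described.

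**Figure D3:**
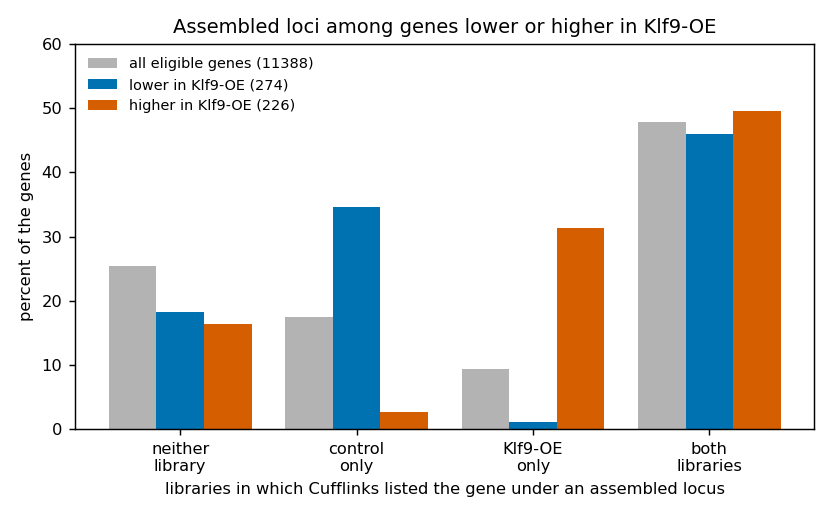
Percent of genes (y axis, linear from 0) by the libraries in which Cufflinks listed them under an assembled locus, for all 11388 eligible genes (grey), the 274 lower genes (blue) and the 226 higher genes (orange). Lower genes were assembled in the control file only in 34.7% of cases and higher genes in the Klf9-OE file only in 31.4%.

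The steady genes had a median log2 ratio of -1.15, from -3.81 to -0.76, and 45 of the 63 were at least 2-fold lower. Behind them stood 22.8 to 3464 implied reads in control PGCs, with a median of 370. Of the 63, 48 were protein coding in RefSeq, 10 were pseudogenes, 1 was a long noncoding RNA and 4 had no match, and 46 stood under their own symbol in both files. Leaving out symbols of predicted genes and ribosomal proteins, 43 protein-coding genes were left. When the Klf9-OE values were rescaled in 3 ways or their interval was widened, 48 of the 63 met the rule each time, 8 failed in some of the 4 alternatives and 7 (Nanog, Dll1, Npas2, Cfap57, Ddah2, Galnt12 and Myoz1) failed in all.

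Among the signalling genes, the Hedgehog list held 3 lower genes of 10 eligible, against 2.41% of all eligible genes. That share is the background for every list count below, and in a short list a few genes set the count. Gli1, a zinc finger transcription factor that is both an effector and a target of Hedgehog signalling, is a steady gene and had an FPKM of 5.42 (4.92 to 5.93) in the control library and 1.40 (1.17 to 1.63) in the Klf9-OE library, with 458 and 149 implied reads. It was 3.88-fold lower. The co-receptor Boc had an FPKM of 2.16 (1.84 to 2.49) and 0.986 (0.820 to 1.15), and Hhat, the acyltransferase that adds palmitate to Hedgehog ligands, 2.80 (2.37 to 3.23) and 1.33 (1.09 to 1.58). The implied reads of Boc and Hhat did not follow. Hhat, with a ratio of bounds of 1.502, also failed the rule in all 4 alternatives of scaling and interval width. The receptors and the other factors stood apart from these: the log2 ratio of Ptch1 was -0.24, that of Smo 0.00, that of Sufu -0.03 and that of Gli3 0.24. The median of the 10 genes was -0.05, near that of all eligible genes.

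In the Notch list 1 of 14 eligible genes was lower by the rule. Dll1, a Notch ligand, is a steady gene, at an FPKM of 7.86 (7.17 to 8.55) and 4.28 (3.84 to 4.72). Its ratio of bounds was 1.52, and 1.45 to 1.48 with the Klf9-OE values rescaled or their interval widened, so Dll1 and with it the Notch list left the rule in all 4 alternatives. The receptor Notch3 had an FPKM of 1.79 and 1.10, short of the rule, and the log2 ratio of Notch1 was 0.11. Rbpj, the transcription factor of the pathway, was at -0.15 and the target Hes1 at 0.05.

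Lower genes of the Wnt and BMP pathways included inhibitors. Dkk3, a secreted protein of the Dickkopf family, is a steady gene and had an FPKM of 2.55 (2.20 to 2.89) in the control library and 1.09 (0.892 to 1.30) in the Klf9-OE library. Dact3, which binds Dishevelled, was not in the Wnt list and is also steady, at 4.86 (4.33 to 5.38) and 2.40 (2.07 to 2.74). Of the 31 eligible Wnt genes only Dkk3 met the rule. The BMP antagonist Chrd had an FPKM of 9.47 (8.75 to 10.2) and 5.10 (4.58 to 5.62), and Msx1, a homeobox gene that BMP signals induce, 4.21 (3.15 to 5.27) and 0.931 (0.670 to 1.19). Neither is steady, and for Msx1 the implied reads were 63.0 and 51.2. The other BMP targets did not share this direction: Id1, Id2, Id3 and Id4 had log2 ratios of 0.56, -0.02, 0.51 and 0.90, and the median of the 21 BMP genes was -0.12.

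Cell surface receptors were among the steady genes. Gpbar1, the cell surface receptor for bile acids, had the largest fold, with an FPKM of 1.06 (0.617 to 1.51) in the control library and 0.0757 (0 to 0.183) in the Klf9-OE library. It rests on 22.8 and 1.99 implied reads, so its 14.03-fold difference is loosely held. Pth1r, the parathyroid hormone receptor, had an FPKM of 3.87 (3.32 to 4.42) and 1.59 (1.28 to 1.91). Cntfr, the subunit that binds ciliary neurotrophic factor and acts with the LIF receptor and gp130, was at 15.0 (13.7 to 16.2) and 7.42 (6.60 to 8.23), the only one of 26 eligible genes of LIF, gp130 and STAT3 signalling to meet the rule. Rtn4rl2, of the Nogo receptor family, was at 5.32 (4.46 to 6.17) and 1.86 (1.39 to 2.32). Inside the cell, Rasgrp1, an exchange factor that activates Ras, was at 2.14 (1.89 to 2.39) and 1.01 (0.851 to 1.16). Gpbar1 and Pth1r, both G protein-coupled receptors, were not in the cAMP and G protein list, of which none of 40 eligible genes met the rule. At the 2.41% of all eligible genes few would. Adenylate cyclases could not count among the 40, as symbols starting with Adcy were left out.

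Several well-known signalling genes met the rule on FPKM without implied reads to match. Igf1r, the receptor of insulin-like growth factors, had an FPKM of 18.5 and 9.80, while its implied reads were 1133 and 3867. Sos1, a Ras exchange factor, was at 16.7 and 9.64 FPKM with 1426 and 2822 implied reads, and Prkca, a protein kinase C, at 3.97 and 1.94 FPKM with 199 and 520. In each of these the locus differed between the files, and the FPKM was lower while the implied reads were higher. Implied reads are not a count where reads are divided among transcripts. Tgfbi, an extracellular matrix protein that TGF-beta induces, was at 4.57 and 1.97 FPKM with 82.4 and 163 implied reads. Crabp2, which carries retinoic acid, was at 89.6 and 39.9 FPKM with 980 and 914 implied reads, and Vdr, the vitamin D receptor, at 10.5 and 4.56 FPKM with 783 and 626.

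Of the 35 eligible pluripotency genes, 3 (8.57%) met the rule, against 2.41% of all eligible genes. Nanog, a homeobox factor of pluripotent cells and PGCs, is a steady gene, with an FPKM of 11.7 (10.6 to 12.7) in the control library and 6.30 (5.63 to 6.97) in the Klf9-OE library and with 533 and 358 implied reads. Its level was 1.85-fold lower, and its ratio of bounds, 1.53, was under 1.5 in each of 4 alternatives, from 1.46 after rescaling to the same sum to 1.49 after rescaling to a median ratio of 0. Fbxo15, an F-box gene expressed in pluripotent cells, was at 54.7 (51.7 to 57.7) and 30.1 (28.1 to 32.2), and its reads followed although its locus differed. Dnmt3l, the cofactor of the de novo DNA methyltransferases, was at 80.9 (77.2 to 84.7) and 38.1 (36.0 to 40.2), with 1862 and 1267 implied reads, which did not follow. Short of the rule, Dppa3 was at 294 and 179 and Pou5f1 at 387 and 277. Others of the list went the other way, with Sox2 at 40.6 and 55.3, Utf1 at 103 and 130 and Dppa4 at 217 and 278, so that the median log2 ratio of the list was 0.03.

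The germ cell and meiosis lists held 3 lower genes between them, and none is steady. Dmc1, the meiotic recombinase, had an FPKM of 92.4 (85.6 to 99.2) and 48.3 (45.6 to 50.9). Hsf2bp, which acts in meiotic recombination, was at 73.4 (67.2 to 79.5) and 34.5 (32.6 to 36.4), and Sohlh1, a transcription factor of germ cell differentiation, at 61.4 (57.9 to 64.9) and 36.3 (34.0 to 38.6). The implied reads of Dmc1 were 741 and 1356 and those of Hsf2bp 568 and 1323, opposite to the FPKM, and those of Sohlh1 were 1238 and 1007. The median log2 ratio was -0.16 for the 49 germ cell genes and 0.00 for the 38 meiosis genes, and none of 22 piRNA pathway genes met the rule. The paralogues Khdc1a and Khdc1c, steady genes with a KH domain, lie 16132 bases apart on chromosome 1. Khdc1a was at 3.26 (2.74 to 3.78) and 1.40 (1.09 to 1.71) and Khdc1c at 3.64 (2.71 to 4.57) and 1.21 (0.725 to 1.69), and reads that match both copies may have been divided between them. Both failed the rule with the wider interval.

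Other transcription factors met the rule. Erg, an ETS factor of endothelial and blood cells, is a steady gene at an FPKM of 3.05 (2.64 to 3.45) and 1.33 (1.09 to 1.57). Of the 9 endothelial markers 4 were lower in Klf9-OE PGCs and 5 were under 1 in both libraries, Pecam1 was at 16.8 and 24.2, and their part in the level of Erg was not tested. Foxf1, a forkhead factor of the mesoderm, was at 3.37 (2.90 to 3.84) and 1.58 (1.29 to 1.87), and Npas2, a paralogue of the clock gene Clock, at 5.47 (4.98 to 5.95) and 2.96 (2.63 to 3.28). Both are steady, but Npas2 failed the rule in all 4 alternatives and Foxf1 in 3 of them. Of 280 eligible genes with a Zfp symbol, the zinc finger proteins, only Zfp608 (0.357%) met the rule, at 2.67 (2.41 to 2.93) and 1.10 (0.947 to 1.25), and it is steady too. Hesx1, a homeobox gene of the early forebrain and pituitary, was at 30.4 and 13.3 FPKM but is not steady, with 515 and 416 implied reads. None of 7 eligible Hox genes met the rule.

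**Figure D4:**
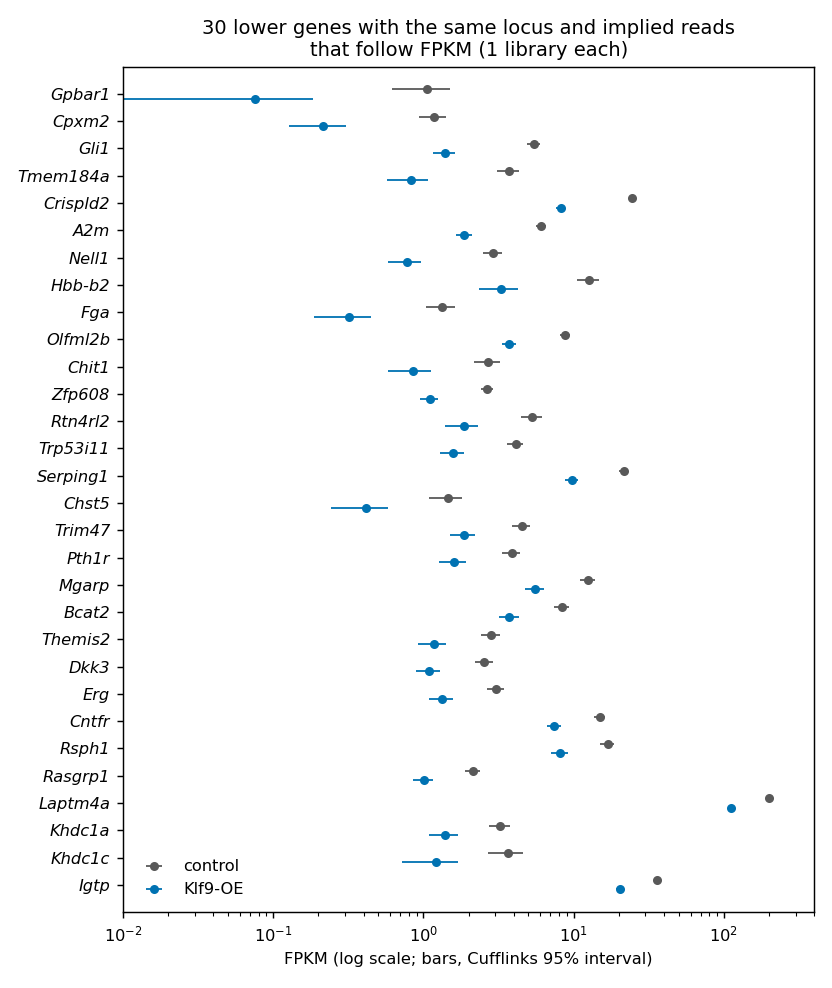
FPKM (x axis, log scale) in the control library (grey) and the Klf9-OE library (blue) for the 30 steady protein-coding genes with the widest gap between intervals, without predicted and ribosomal protein genes. Points are the FPKM of 1 library each and bars the Cufflinks 95% interval, cut at 0.01 on the left for Gpbar1; in each row the intervals do not overlap, as the rule demands.

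Secreted proteins were also among the steady genes. Crispld2, a secreted protein with an LCCL domain, had an FPKM of 24.6 (23.6 to 25.6) in the control library and 8.18 (7.68 to 8.67) in the Klf9-OE library, and its 2673 and 1074 implied reads make it one of the most deeply covered. Nell1, a secreted protein known from bone formation, was at 2.91 (2.49 to 3.33) and 0.776 (0.585 to 0.967). Olfml2b, with an olfactomedin domain, was at 8.81 (8.13 to 9.48) and 3.73 (3.33 to 4.12), Chit1, a chitinase, at 2.71 (2.18 to 3.23) and 0.850 (0.583 to 1.12), and Cpxm2, of the carboxypeptidase family, at 1.17 (0.940 to 1.41) and 0.216 (0.127 to 0.305). All of these are steady.

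Genes of proteins known from blood plasma were lower too. In a list of clotting and complement proteins written after the values were seen, 7 of 28 eligible genes met the rule. Over all eligible genes 2.41% met it, and the choice of the list makes its count no evidence of a theme. A2m, a broad protease inhibitor, was at 6.06 (5.61 to 6.50) and 1.87 (1.64 to 2.09). Serping1, the inhibitor of complement C1, was at 21.5 (19.96 to 22.96) and 9.68 (8.76 to 10.6), and the fibrinogen alpha chain Fga at 1.33 (1.04 to 1.61) and 0.318 (0.188 to 0.448). These 3 are steady. The fibrinogen gamma chain Fgg, 11104 bases from Fga on chromosome 3, was at 7.75 and 2.35, the complement component C8b at 5.55 and 1.23, and the neighbours Itih3 and Itih4, heavy chains of the inter-alpha-trypsin inhibitor, at 3.95 and 1.30 and at 2.47 and 0.778, and none of these is steady. Higher in Klf9-OE PGCs were Trf, which encodes transferrin, at 1.40 and 4.56, and Pros1, protein S, at 3.08 and 5.99, and the median log2 ratio of the 28 genes was -0.17.

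Genes of motile cilia, which move fluid and sperm, were also seen among the lower genes and listed afterwards. Of 49 eligible genes 7 met the rule, and 33 had a lower FPKM in Klf9-OE PGCs, with a median log2 ratio of -0.37. Over all eligible genes 2.41% met the rule and 56.1% had a lower FPKM, and as the list was written from these values its counts are no evidence of a theme. Rsph1, a protein of the radial spoke head, is steady at 16.8 (15.0 to 18.5) and 8.13 (7.06 to 9.20), as is Cfap57 at 2.49 (2.17 to 2.81) and 1.24 (1.04 to 1.44), which failed the rule in all 4 alternatives. The tektin Tekt2 was at 2.99 and 0.831 with reads that followed from a different locus. The dynein chain Dnaic1 was at 8.32 and 2.20, Drc7 of the dynein regulatory complex at 1.46 and 0.453, Wdr63 at 1.66 and 0.310 and Nme8 at 6.19 and 0.569, and their implied reads did not follow. Nme8 had the widest gap between intervals of all 274 genes, and its implied reads were 41.6 and 32.7. Dnah2, an axonemal dynein, was the furthest in the other direction, at 1.05 and 3.09, and Foxj1, the transcription factor of motile ciliogenesis, was at 1.02 and 1.03.

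Channels for sodium and calcium were likewise listed after the values were seen, with 6 of 20 eligible genes lower by the rule, a count that again is no evidence of a theme. Only Cacng6, a gamma subunit of calcium channels, is steady, at 2.32 (1.55 to 3.09) and 0.617 (0.259 to 0.974), and it failed the rule with the wider Klf9-OE interval. The pore subunits Scn8a and Cacna1a were at 2.09 and 0.812 and at 3.59 and 1.91, the auxiliary subunit Cacna2d2 at 4.31 and 1.83, the epithelial sodium channel subunit Scnn1b at 4.36 and 1.39 and the ATP-gated channel P2rx3 at 2.86 and 1.14. Levels of all 6 were low, under an FPKM of 5 in control PGCs. None of 21 eligible genes with a Kcn symbol, the potassium channels, met the rule, against 2.41% of all eligible genes, a share at which few would. Their median log2 ratio was -0.28, close to the -0.32 of the 20 sodium and calcium channel genes.

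**Figure D5:**
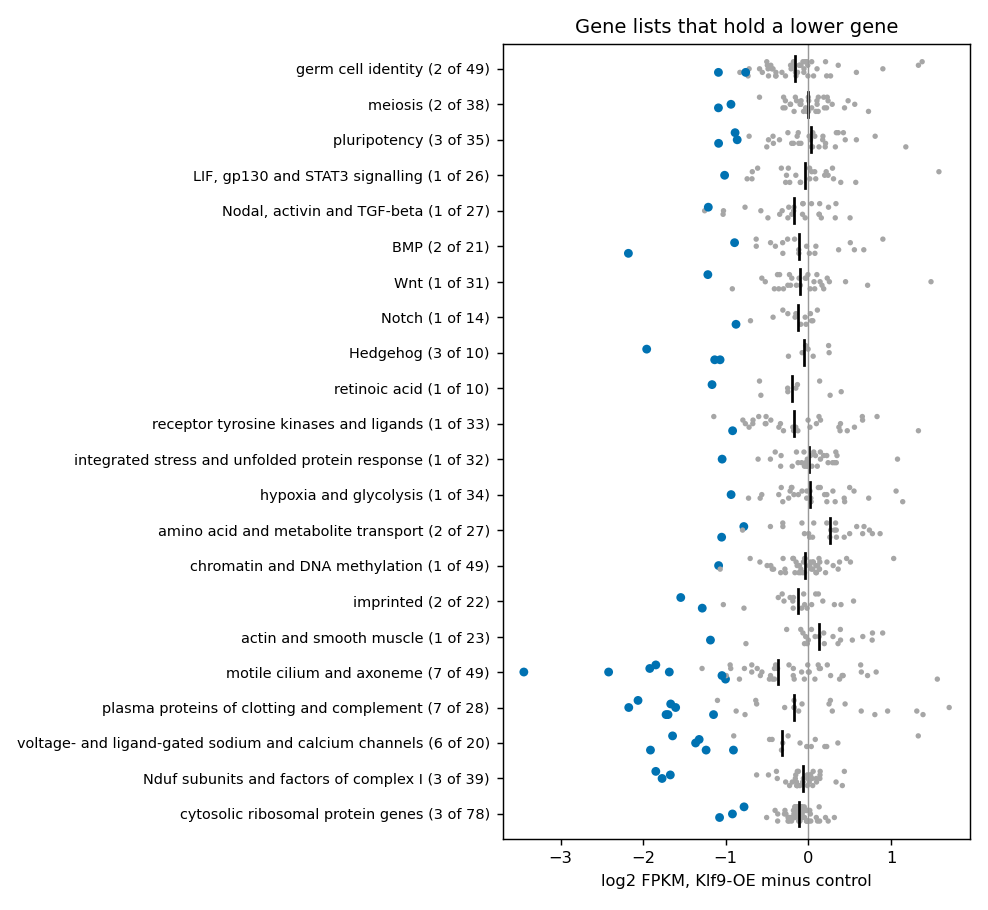
Log2 ratio of FPKM, Klf9-OE minus control (x axis), for every eligible gene of each list that holds a lower gene, with lower genes in blue, the other genes in grey and the list's median as a black bar. The 4 ribosomal protein pseudogenes, all of them lower genes, are not drawn, and the lists of cilium, plasma protein, channel, Nduf and ribosomal protein genes were written after the values were seen. The medians drawn lie between -0.37 (cilium) and 0.26 (amino acid and metabolite transport) while the blue points lie at -0.76 or below.

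In the lists other than the 5 written after the values were seen and the ribosomal protein pseudogenes, 24 of 699 eligible genes met the rule, or 3.43%, against 2.41% of all eligible genes, and 5 of the 24 are steady (Gli1, Dll1, Dkk3, Cntfr and Nanog). The remaining genes of the lists, none of them steady, were the imprinted genes Slc22a18 (4.68 and 1.60 FPKM) and Zim1 (2.73 and 1.12), the amino acid carriers Slc1a4 (18.0 and 10.4) and Slc43a1 (16.5 and 7.99), the stress-induced mTORC1 inhibitor Ddit4 (54.95 and 26.6), the endoplasmic reticulum oxidase Ero1l (33.0 and 17.3) and the smooth muscle myosin Myh11 (1.18 and 0.521). For Ddit4 the implied reads were lowered more than the FPKM, from 2241 to 836. No gene met the rule among 44 genes of DNA replication and mitosis, 34 antioxidant genes, 33 genes of sterol and fatty acid synthesis, 27 p53 targets or 19 immediate early genes. At 2.41%, lists of these sizes would hold few. The sterol and fatty acid genes had a median log2 ratio of -0.18. Their control interval lay wholly above the Klf9-OE one for 18 of 33 and below for 3, against 20.8% and 13.4% of all eligible genes. The other lists of this group had medians from 0.09 to 0.28.

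The most highly expressed of the lower genes included ribosomal and mitochondrial protein genes. Rps21, of the small ribosomal subunit, is steady at an FPKM of 2895 (2784 to 3006) and 1687 (1610 to 1764). Rpsa was at 2244 and 1187 and Rpl31 at 1088 and 516, and neither is steady. Cytosolic ribosomal protein genes gave 3 lower genes of 78 eligible, while 67 of the 78 had a lower FPKM in Klf9-OE PGCs with a median log2 ratio of -0.11, against 56.1% and -0.036 for all eligible genes. This list, too, was written after the values were seen. The complex I genes Ndufa13, Ndufab1 and Ndufaf5 were at 226 and 62.8, 247 and 77.5, and 31.1 and 9.10, with implied reads of 1014 and 1126, 377 and 923, and 457 and 618, so the reads did not follow for any of these 3. Phb, prohibitin of the inner mitochondrial membrane, was at 483 and 227 and the proton pump subunit Atp6v1f at 484 and 155, and neither is steady. The RNA-binding subunit Lsm7 (825 and 303), the polymerase II subunit Polr2g (251 and 149), the cyclin Ccni (246 and 133), the thioredoxin-like Txnl1 (213 and 85.3) and the chromatin remodelling subunit Phf10 (183 and 98.7) were not steady. Laptm4a, a lysosomal membrane protein, is steady at 198 and 112, and the kinase Stk25 was at 198 and 110 with reads that followed from a different locus.

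Pseudogenes and predicted genes met the rule more often than protein-coding genes, and no sequences were compared to find copies. RefSeq pseudogenes were 14 of 274 lower genes, 13.46% of the 104 eligible pseudogenes, against 2.23% of eligible protein-coding genes and 4.88% of eligible long noncoding RNAs. Predicted genes with a Gm symbol gave 21 of 216 (9.72%). All 4 eligible symbols of ribosomal protein pseudogenes met the rule: Rpl31-ps12 was at 409 and 199, Rpl14-ps1 at 402 and 207, Rps15a-ps6 at 169 and 79.7 and Rps15a-ps4 at 133 and 67.9. Of the 4, all but Rpl14-ps1 are steady. Rpl37rt was at 178 and 84.9 and Gm1821 at 980 and 529, and neither is steady. Reads that match both a gene and its copies can be divided between them, so these values are uncertain, the steady ones among them included. The adult beta globin Hbb-b2, also with close paralogues, is steady at 12.6 (10.5 to 14.7) and 3.31 (2.34 to 4.28). It was added for the check to a list of 10 red blood cell markers that did not hold it. With it the summed FPKM of the markers found was 13.7 and 4.20, most of it Hbb-b2 itself, so the lower sum is no separate observation. The other 6 markers of red blood cells that were found were under 1 in both libraries.

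The 20 genes with the widest gap between intervals were mostly not steady. Besides Gpbar1, Cpxm2 and Gli1 only Tmem184a was, at 3.69 (3.08 to 4.30) and 0.827 (0.576 to 1.08). The RNA-binding protein Strbp, known from spermatid development, had an FPKM of 92.0 (86.9 to 97.1) and 16.5 (15.9 to 17.2). Its implied reads were 1301 and 2597, higher in Klf9-OE PGCs although the FPKM was lower. The Argonaute gene Ago4 was at 11.8 and 3.03 FPKM with 439 and 495 implied reads, the transporters Slc4a8 and Slc5a4a at 5.51 and 1.45 and at 4.29 and 0.354, and the kinases Eef2k and Nek5 at 29.3 and 9.04 and at 11.4 and 2.33. Macrod2 (53.7 and 13.7), Cyb561d2 (30.9 and 6.50), Smim1 (38.6 and 9.86) and the repair and transcription factor subunit Gtf2h5 (79.7 and 21.6) were also among them, and none of these is steady. The noncoding or uncharacterised B930092H01Rik, E230016M11Rik and A530072M11Rik were at 3.01 and 0.361, 6.58 and 0.858, and 4.64 and 0.433.

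Steady genes with other roles included Igtp, Bcat2 and Mgarp. Igtp, an interferon-inducible GTPase, was at 35.7 (34.0 to 37.4) and 20.2 (19.05 to 21.4), and Bcat2, the mitochondrial aminotransferase of branched-chain amino acids, at 8.37 (7.44 to 9.31) and 3.74 (3.18 to 4.30). Mgarp, a mitochondrial protein, was at 12.4 (11.02 to 13.9) and 5.55 (4.73 to 6.36). These 3 differed from 1.77-fold to 2.24-fold.

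Within the genome, 14 pairs of lower genes lay within 100 kb of each other. Besides the pairs above they included Npas2 and Rpl31, 4560 bases apart on chromosome 1, Slc43a1 between Serping1 (63885 bases) and Rtn4rl2 (8360 bases) on chromosome 2, and Dnaic1 and Cntfr, 19340 bases apart on chromosome 4. In 2 pairs, Plaa with Gm12657 and Btbd9 with Gm6402, the spans of the loci overlapped, and whether their exons share reads was not tested. By chromosome the share of eligible genes that met the rule ran from 1.23% on chromosome 9 to 3.29% on chromosome 17, leaving out the Y chromosome, where none of 9 did.

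Promoter windows were searched because KLF9 is known to bind GC boxes and CACCC-like elements. RefSeq windows on GRCm38.p6, from 250 bases before to 50 after the start, were matched for 191 of the 274 lower genes, among them 34 of the 63 steady ones, and for 8721 eligible genes. The GC box GGGCGG, read on either strand, was in 60.2% of the lower genes, 52.9% of the steady ones and 66.8% of the eligible genes. CACGCCC was in 17.8%, 20.6% and 16.5%, and CCACCC in 38.2%, 52.9% and 36.3%. The median GC content of the windows was 60.7%, 58.5% and 61.3%. The palindrome TTCNNNGAA, the core of STAT sites, was in 12.04%, 23.5% and 6.88%, which for the steady genes is 8 of 34, and the E-box CACGTG in 8.90%, 5.88% and 10.6%. A match is a description of the letters in the window and not of binding.

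The 250 bases before the start of 3 steady genes are shown, since they hold the searched letters beside a factor of pluripotency, a Notch ligand and the deeply covered secreted protein. Because the letters guided the choice, their presence here is no finding. Nanog and Dll1 failed the rule in all 4 alternatives of scaling and interval width. Capitals mark CACGCCC or CCACCC read on either strand, and no GGGCGG lay in these stretches. Each runs 5′ to 3′ on the strand of its gene, from RefSeq on GRCm38.p6. Nanog lies on the plus strand at chr6:122707239-122707488, Dll1 on the minus strand at chr17:15375824-15376073 and Crispld2 on the plus strand at chr8:119992188-119992437.
Nanog: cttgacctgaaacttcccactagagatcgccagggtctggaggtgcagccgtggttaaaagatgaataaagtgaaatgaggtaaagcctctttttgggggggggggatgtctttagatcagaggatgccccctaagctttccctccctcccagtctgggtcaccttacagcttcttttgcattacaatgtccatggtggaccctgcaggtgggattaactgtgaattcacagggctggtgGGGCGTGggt
Dll1: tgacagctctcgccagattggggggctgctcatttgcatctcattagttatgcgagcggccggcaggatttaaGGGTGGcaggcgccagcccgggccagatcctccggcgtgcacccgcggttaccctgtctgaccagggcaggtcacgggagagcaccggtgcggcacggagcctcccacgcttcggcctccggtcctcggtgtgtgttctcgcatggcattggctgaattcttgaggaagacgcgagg
Crispld2: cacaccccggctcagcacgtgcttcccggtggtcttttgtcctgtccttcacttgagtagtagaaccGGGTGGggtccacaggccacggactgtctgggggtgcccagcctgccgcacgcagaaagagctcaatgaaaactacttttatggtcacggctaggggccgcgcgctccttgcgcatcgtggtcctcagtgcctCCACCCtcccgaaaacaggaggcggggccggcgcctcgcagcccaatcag
Nanog held 1 CACGCCC, Dll1 1 CCACCC and Crispld2 2 CCACCC in its stretch, and their log2 ratios of FPKM were -0.89, -0.88 and -1.59.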

How the data were processed

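RNA-seq of 1 control and 1 Klf9-OE library was analysed. Reads (51-mer, single-end, TruSeq v2 libraries) had been mapped by the authors to mm10 with TopHat2 and Bowtie, and the FPKM of each locus with its 95% interval was deposited as estimated by Cufflinks, which for single-end reads is RPKM. The files held 30382 and 39071 loci, of which 23900 and 23944 had a gene name, and no read totals, so depth was taken from the intervals. Unnamed loci were not used.

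Genes were filtered as described, with no pseudocount and no rescaling, and compared as ratios. Biotypes and promoters were matched by symbol to RefSeq. The genes and lists were chosen with earlier results of these data known, and the cilium, plasma protein, channel, Nduf and ribosomal lists after their values were seen. Genes named are the 20 with the widest gap between intervals, the 20 with the highest control FPKM, those in the lists and those at the threshold. A few of these are not reported here. Others were named by known function after their values were seen. Alternatives changed the gap, the minimum, the pseudocount, the scaling and the interval width. The rule and the implied reads were tested on simulated counts without transcripts to divide or loci that differ, so those cases were not covered. Python 3.11.15, numpy 2.4.6, pandas 2.3.3 and matplotlib 3.10.9 were used.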

Additional observations from a re-analysis of the deposited data

How the results depend on the processing

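The number of lower genes, 274, was 66 with a gap of 2 times and 2373 with intervals that need only not overlap. It was 156 with the same locus in both files, 74 with implied reads within 10%, 63 with both conditions and 50 with no assembled locus in either file, alternatives chosen after seeing the data. Rescaling to the same sum, upper quartile or median gave 227, 240 and 248, and widening the Klf9-OE interval by the square root of 2, for reads that may have been counted in pairs, gave 237, of which 50 are steady genes. Of the 63 steady genes, 48 kept to the rule under all 4 of these alternatives and 7, Nanog and Dll1 among them, under none. The number of genes higher in Klf9-OE PGCs, 226, was 89 with a gap of 2 times, 255, 249 and 245 after rescaling to the same sum, upper quartile or median, and 170 with the wider interval, so higher genes outnumbered lower ones under the first 2 scalings. With a pseudocount of 1 the median log2 ratio was -0.96 and 151 genes were at least 2-fold lower. With the gap of 2 times, 2 of the 24 genes of the lists remained past the threshold. Of the 65 genes named by rule, 52 to 56 kept to the rule under rescaling and 56 with the wider interval. The causes of these movements were not tested. No paired analysis was possible because each group held 1 library.

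Implied reads in control PGCs were under 50 for 25 of the lower genes and under 100 for 57. Whether depth or a wide interval set these numbers was not tested. No error covers the difference between cultures.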
